A study of Mus musculus with 30 samples.

Results

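The response of mammary tumours to KCL-HO-1i alone was read from the 5 libraries titled KCL-HO-1i treated and the 5 titled Control, 10 of the 30 RNA sequencing libraries of the series. KCL-HO-1i inhibits heme oxygenase-1 (HO-1), and the comparison asks what the inhibitor does to the tumour tissue when no chemotherapy is given. All mice were FVB/N-Tg(MMTV-PyVT)634Mul/J, labelled WT in genotype, in which the MMTV promoter drives the polyoma middle T oncogene in the mammary epithelium (MMTV-PyMT) and tumours arise spontaneously. The treated mice received KCL-HO-1i at 25 µmol/kg daily by intraperitoneal injection and the other 5 received vehicle, and tumours were collected at 72 hours per the labels, although a shorter treatment is given in the study itself. The remaining 20 libraries came from tumours treated with 5-fluorouracil (5-FU), gemcitabine, or KCL-HO-1i together with either of them, with 5 libraries in each group.

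HO-1, encoded by Hmox1, breaks heme down to biliverdin, carbon monoxide and iron. Biliverdin reductase then turns biliverdin into bilirubin, and ferritin stores the iron or ferroportin exports it from the cell. Heme itself relieves repression of Hmox1 by BACH1, so the gene is known as a sensor of free heme as well as of oxidative stress. In tumours HO-1 is abundant in macrophages, above all in those that lie along blood vessels and carry LYVE-1 and CD206.

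The 10 libraries held between 10835346 and 13482226 counts each. Luminal keratin and adhesion genes marked all of them as mammary epithelium, with a mean over 22 luminal genes of 6.78 to 7.18 on the log2 CPM scale (CPM, reads of a gene relative to the TMM-scaled total of its library). Krt8, for example, lay between 1167 and 1611 CPM in vehicle and between 944 and 1445 CPM in KCL-HO-1i. In bulk tumour RNA, fewer cells of a type and less RNA per cell cannot be told apart.

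Several libraries stood apart before any comparison was made. KCL-HO-1i replicates 3 and 4 had the most skeletal muscle RNA, with 2463 and 6526 CPM summed over 28 muscle genes against 35.0 to 103 CPM in vehicle. Replicate 4 also held 18779 CPM of white adipocyte genes, against 705 to 3995 CPM in vehicle, and 9.69% of its counts came from mitochondrial genes, against at most 3.51% in the other 9 libraries. Vehicle replicate 3 was lowest in macrophage and fibroblast genes. Mouse codes in the labels, whose meaning is not stated, numbered 4 in each group with 0 shared between the groups, so code and treatment cannot be told apart within the 10 libraries. Values without KCL-HO-1i replicates 3 and 4 are therefore given beside most gene lists and leading genes.

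No gene passed an adjusted p under 0.05 in edgeR, 0 of 13663 tested (0%), and the smallest adjusted p was 0.333. At an unadjusted p under 0.05, 1005 genes were higher in KCL-HO-1i (7.36% of those tested) and 284 were lower (2.08%). The 5 treated libraries lay above all 5 vehicle libraries for 102 genes (0.747%) and below all of them for 57 (0.417%). DESeq2 was less strict, with 129 of 15514 genes higher at an adjusted p under 0.05 (0.832%) and 3 lower (0.0193%), the latter being Tsc22d3, Tmem229b and Nfrkb. Set against all 15 libraries without KCL-HO-1i (vehicle, 5-FU and gemcitabine), 110 genes were higher at the adjusted threshold in edgeR (0.805%) and 0 lower (0%), with 250 lower at an unadjusted p under 0.05. Limma-voom placed 0 genes past the adjusted threshold in either direction and had 1044 higher and 586 lower at an unadjusted p under 0.05, so that 64.0% of its calls were higher, against 78.0% in edgeR. A fit with the mouse code as a covariate used all 30 libraries. Vehicle replicates 2 to 5 had codes found in no other group. That fit therefore compared KCL-HO-1i with vehicle only through vehicle replicate 1, whose code recurred in KCL-HO-1i/gemcitabine. Its counts of called genes are left out, since they rest on 1 vehicle library.

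The excess of higher genes rested on replicates 3 and 4. Replicate 4 was the highest treated library for 704 of the 1005 higher genes (70.05%, against 29.0% of all tested genes) and replicate 3 for 257 (25.6%, against 16.5%), while replicate 5 was the lowest for 599 (59.6%). Without replicate 4 the count of higher genes was 415, and without replicates 3 and 4 it was 84 of 13933 (0.603%), 70 of them among the 1005. The lower genes numbered 115 without these libraries (0.825%), 59 of them among the 284. They were 177 without KCL-HO-1i replicate 3 alone and 452 without vehicle replicate 1. DESeq2 without replicates 3 and 4 placed 0 genes higher and 5 lower at the adjusted threshold (Cnfn, Hba-a2, Krt6b, Krt73 and Rptn), and the comparison with 15 libraries then gave 0 in both directions, with 64 higher and 88 lower at an unadjusted p under 0.05.

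Hmox1 (chr8:75093618-75100593, mm10, GRCm38.p6), the gene of the inhibited enzyme, was higher in the treated tumours. It stood at 32.9, 51.3, 84.7, 59.9 and 18.4 CPM in vehicle replicates 1 to 5, and at 86.4, 106, 299, 225 and 47.8 CPM in KCL-HO-1i replicates 1 to 5. In 4 of the treated tumours it exceeded every vehicle tumour, and replicate 5 lay inside the vehicle range. The means were 49.4 ± 25.4 and 153 ± 105 CPM (SD, n = 5), a log2 fold change of 1.63 ± 0.64 (SE) with an edgeR adjusted p of 0.408, and without replicates 3 and 4 it was 0.69 ± 0.68. Hmox2, the constitutive heme oxygenase, had a log2 fold change of 0.01 ± 0.11 (edgeR adjusted p = 0.994), with every treated library between 65.1 and 77.8 CPM.

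The iron transporters of heme-recycling cells were higher along with Hmox1. Slc40a1 (chr1:45908070-45926532), which encodes the iron exporter ferroportin, had 15.8, 14.2, 8.18, 16.0 and 11.8 CPM in vehicle and 26.3, 25.4, 49.2, 42.2 and 20.2 CPM in KCL-HO-1i. The groups did not overlap, and its log2 fold change was 1.31 ± 0.44 (edgeR adjusted p = 0.354), or 0.86 ± 0.49 without replicates 3 and 4. Slc11a1 (chr1:74375014-74386057), the phagosomal metal transporter NRAMP1 of macrophages, had 2.54, 6.76, 1.23, 5.68 and 1.79 CPM in vehicle and 11.3, 13.9, 25.2, 13.3 and 6.19 CPM in KCL-HO-1i. Here replicate 5 alone fell inside the vehicle range. With a log2 fold change of 1.95 ± 0.53 (edgeR adjusted p = 0.333, DESeq2 adjusted p = 0.0264), Slc11a1 kept 1.53 ± 0.57 without replicates 3 and 4.

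Spic, the transcription factor that heme induces in iron-recycling macrophages, was close to the limit of detection. Vehicle held 2 reads in all, in replicate 4, and KCL-HO-1i held 44, in replicates 2 to 5, a ratio of CPM sums of 21.3 with a 95% counting interval of 5.56 to 182. The limit of 3 reads corresponded to 0.215 to 0.298 CPM, and intervals and limits of this kind cover counting error only.

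The enzymes and stores downstream of heme oxygenase differed less. Blvra, biliverdin reductase A, had a log2 fold change of 0.07 ± 0.13 and Blvrb, biliverdin reductase B, of 0.38 ± 0.21 (edgeR adjusted p = 0.962 and 0.621). The ferritin chains Fth1 and Ftl1 gave 0.54 ± 0.36 and 0.41 ± 0.24 (edgeR adjusted p = 0.726 and 0.653). Haptoglobin (Hp), the plasma scavenger of free haemoglobin and also an adipocyte product, stood at 19.5 to 95.2 CPM in vehicle and at 128, 171, 281, 1122 and 65.5 CPM in KCL-HO-1i. Its log2 fold change was 3.11 ± 1.09 (edgeR adjusted p = 0.364), or 1.57 ± 1.1 without replicates 3 and 4. Of the 31 tested genes of heme breakdown and iron handling, 5 were higher at an unadjusted p under 0.05 (16.1%, against 7.36% of all tested genes) and 1 was lower, with a median log2 fold change of 0.19, against -0.01 over all tested genes. Without replicates 3 and 4 the median was 0.10 with 2 higher and 0 lower.

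Targets of NRF2 and BACH1, the antioxidant regulators that also act on Hmox1, gave a median of 0.12 over 23 genes, of which 4 were higher at an unadjusted p under 0.05 and 0 lower. Without replicates 3 and 4 the median of this list turned to -0.01 and 0 of its genes were called. Gsr, glutathione reductase, was higher in all 5 treated libraries (66.6 to 89.1 CPM) than in any vehicle library (58.7 to 65.38 CPM), with a log2 fold change of 0.24 ± 0.11 and an edgeR adjusted p of 0.518. The 12 genes of heme synthesis had a median of 0.02, with 1 higher and 0 lower, and -0.01 with 0 called without replicates 3 and 4.

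**Figure D1:**
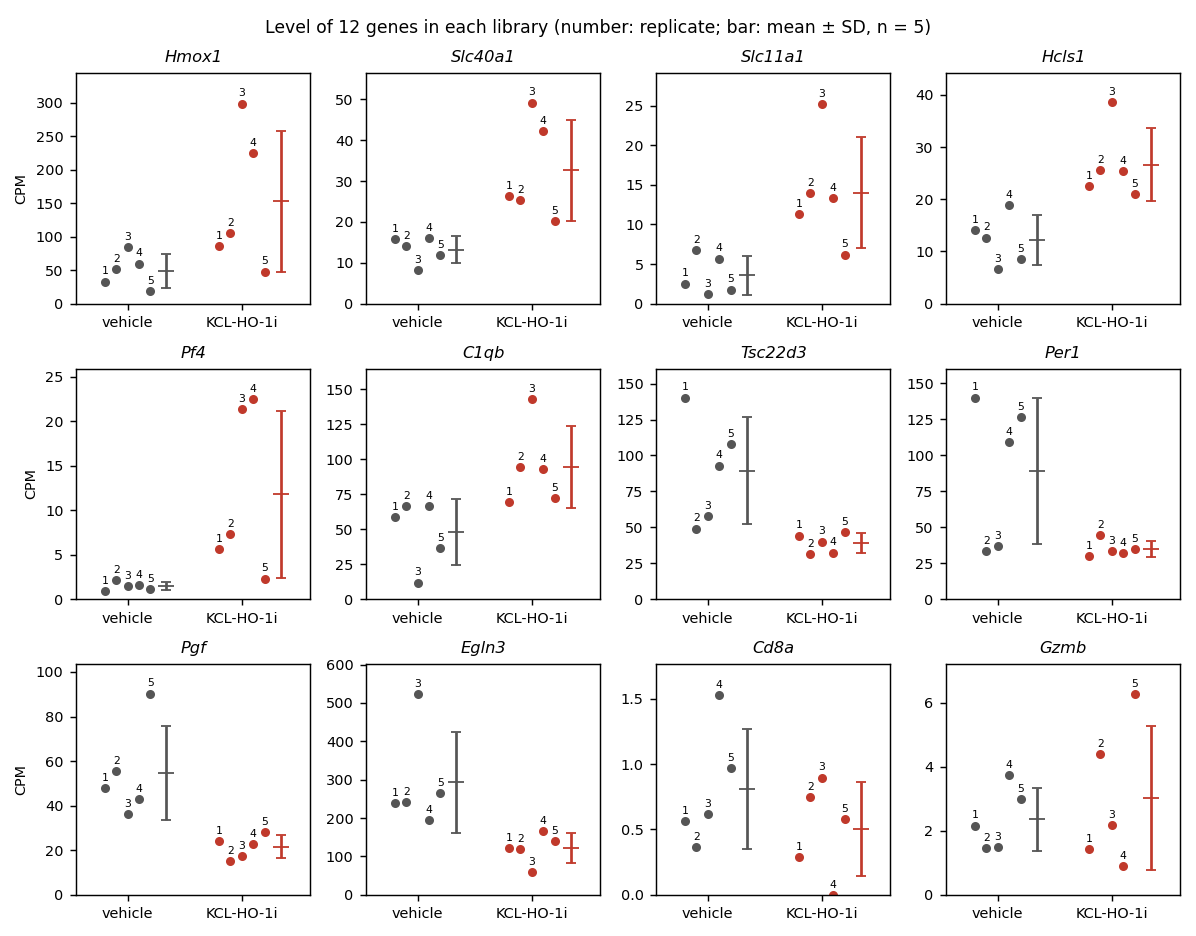
CPM of 12 genes in each of the 5 vehicle and 5 KCL-HO-1i libraries (points, linear axis from 0), with the mean and SD of each group. Hmox1, Slc11a1 and Slc40a1 were highest in KCL-HO-1i replicate 3, and Tsc22d3 and Pgf had all treated libraries below all vehicle libraries.

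Genes of leukocyte signalling were higher as a group. This list, like the others, was chosen with earlier results of these data known, so its counts are no independent support. All 24 tested members had a positive log2 fold change, 17 of them at an unadjusted p under 0.05 (70.8%), with a median of 0.91, or 0.61 with 3 of 24 called without replicates 3 and 4. Hcls1 (chr16:36934983-36963214), a cortactin homologue of blood cells that links antigen receptors to actin, had 14.1, 12.6, 6.68, 18.9 and 8.48 CPM in vehicle and 22.5, 25.6, 38.5, 25.5 and 21.0 CPM in KCL-HO-1i. No treated library overlapped with vehicle, the log2 fold change was 1.13 ± 0.31 (edgeR adjusted p = 0.333, DESeq2 adjusted p = 0.041), and 0.92 ± 0.34 remained without replicates 3 and 4. Lcp2, the adaptor SLP-76, ran from 1.85 to 4.83 CPM in vehicle and from 6.03 to 12.5 CPM in KCL-HO-1i, without overlap and with a log2 fold change of 1.16 ± 0.33. Was, the actin regulator of the Wiskott-Aldrich syndrome, ran from 0.879 to 2.71 CPM against 3.05 to 7.84 CPM, also without overlap, with 1.26 ± 0.38. Btk, the tyrosine kinase of B cells and myeloid cells, gave 1.43 ± 0.45, and its treated replicate 5 (1.65 CPM) lay inside the vehicle range of 0.879 to 1.88 CPM.

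Macrophage genes were higher in 19 of 20 tested members, 9 of them at an unadjusted p under 0.05 (45%), with a median of 0.80. The 3 chains of complement C1q, secreted mainly by tissue macrophages, had almost equal log2 fold changes, 0.99 ± 0.40 for C1qa, 0.97 ± 0.38 for C1qb and 0.97 ± 0.40 for C1qc (edgeR adjusted p = 0.417, 0.408 and 0.427). C1qb stood at 58.9, 66.5, 11.9, 66.3 and 36.7 CPM in vehicle and at 69.5, 94.4, 143, 92.8 and 72.3 CPM in KCL-HO-1i, so the groups were adjacent without overlapping, and vehicle replicate 3 was far below the others. Fcgr3, an activating receptor for IgG, gave 1.26 ± 0.43, and its replicate 5 (9.65 CPM) lay within the vehicle range. Without replicates 3 and 4 the median of the list was 0.52 and 0 of its genes were called.

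Markers of perivascular and resident macrophages, the cells in which HO-1 is best known in this model, were higher in 4 of the 5 treated tumours. All 16 tested genes had a positive log2 fold change, 11 at an unadjusted p under 0.05 (68.8%), with a median of 2.26, or 1.09 with 1 called without replicates 3 and 4. Lyve1, the hyaluronan receptor of these cells and of lymphatic vessels, had 1.79, 0.0727, 0.352, 4.24 and 0.818 CPM in vehicle and 7.75, 5.07, 15.8, 34.5 and 0.247 CPM in KCL-HO-1i. Mrc1, the mannose receptor CD206, had 8.64, 5.81, 3.61, 15.7 and 4.76 CPM in vehicle and 21.1, 25.0, 58.8, 77.4 and 3.05 CPM in KCL-HO-1i. For both genes replicates 1 to 4 exceeded every vehicle tumour, while replicate 5 was lower than at least 4 vehicle tumours. The log2 fold changes were 3.12 ± 1.27 for Lyve1 and 2.27 ± 0.89 for Mrc1 (edgeR adjusted p = 0.428 and 0.408), and 1.59 ± 1.35 and 1.09 ± 0.95 without replicates 3 and 4.

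In Cd163, Folr2, Maf and Pf4 of this list, replicates 3 and 4 were again the highest treated libraries and replicate 5 the lowest. Cd163, the scavenger receptor for haemoglobin bound to haptoglobin, had 7.82, 5.74, 20.0, 29.7 and 3.71 CPM in KCL-HO-1i against 0.0879 to 5.13 CPM in vehicle, with a log2 fold change of 1.93 ± 0.97 (edgeR adjusted p = 0.55), or 0.72 ± 1.06 without replicates 3 and 4. Folr2, folate receptor beta, gave 2.26 ± 0.85 and Maf, a transcription factor of these macrophages, 1.77 ± 0.66. Pf4 (chr5:90772435-90773383), the chemokine CXCL4 of platelets and resident macrophages, had 0.939, 2.18, 1.5, 1.61 and 1.12 CPM in vehicle and 5.60, 7.30, 21.4, 22.5 and 2.31 CPM in KCL-HO-1i. It was the member of the list without overlap, with a log2 fold change of 2.99 ± 0.83 (edgeR adjusted p = 0.333, DESeq2 adjusted p = 0.0164), or 1.78 ± 0.84 without replicates 3 and 4.

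Mast cell genes, a list added after their values were seen, were higher in the same 4 tumours. Of 7 tested genes 5 were higher at an unadjusted p under 0.05, with a median of 3.52, or 2.31 with 2 called without replicates 3 and 4. Tpsb2, a mast cell tryptase, held 0 to 0.223 CPM in vehicle and 2.01, 2.31, 4.85, 5.37 and 0.247 CPM in KCL-HO-1i, and Mcpt4, a mast cell chymase, 0 to 0.446 CPM and 2.94, 3.80, 9.41, 9.05 and 0.495 CPM. Neither gene overlapped between the groups in CPM, although replicate 5 exceeded the highest vehicle library by little. For Tpsb2 the value of replicate 5 equalled the limit of 3 reads in that library. The highest vehicle value (0.223 CPM) equalled the limit of 3 reads in vehicle replicate 5. That gap therefore came from the scaling of the libraries, and Mcpt4 in replicate 5 was also close to the limit. Rasgrp4, a Ras activator of mast cells, led the genes without overlap, with 0.188 to 0.654 CPM in vehicle, 1.07 to 4.08 CPM in KCL-HO-1i and a log2 fold change of 2.46 ± 0.57 (edgeR adjusted p = 0.333, DESeq2 adjusted p = 0.0111).

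Among 25 tested chemokines 9 were higher at an unadjusted p under 0.05 (36.0%) and 0 lower, with a median log2 fold change of 1.11, or 0.69 with 2 called without replicates 3 and 4. Ccl6, a chemokine of rodent myeloid cells, ran from 5.06 to 17.0 CPM in vehicle and stood at 36.8, 28.8, 97.1, 126 and 5.20 CPM in KCL-HO-1i, with 2.62 ± 0.80 (edgeR adjusted p = 0.337). Ccl9, its neighbour in sequence family and function, gave 1.71 ± 0.63 with the same 4 tumours high. Cxcl14, a chemokine of epithelium and stroma, stood at 2.20 to 21.3 CPM in vehicle and at 29.1, 35.5, 77.3, 56.2 and 14.4 CPM in KCL-HO-1i, with 1.91 ± 0.59 (edgeR adjusted p = 0.339), or 1.22 ± 0.64 without replicates 3 and 4. Cxcl12, the stromal ligand of CXCR4, gave 1.47 ± 0.68, which was 0.36 ± 0.72 without those libraries. Ccl21a, the lymphatic ligand of CCR7, had no reads in vehicle and 33 reads in 4 of the treated libraries, which places its mean at least 2.07-fold higher than the floor of vehicle, and counting it at this bound the median of the list was 1.06.

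**Figure D2:**
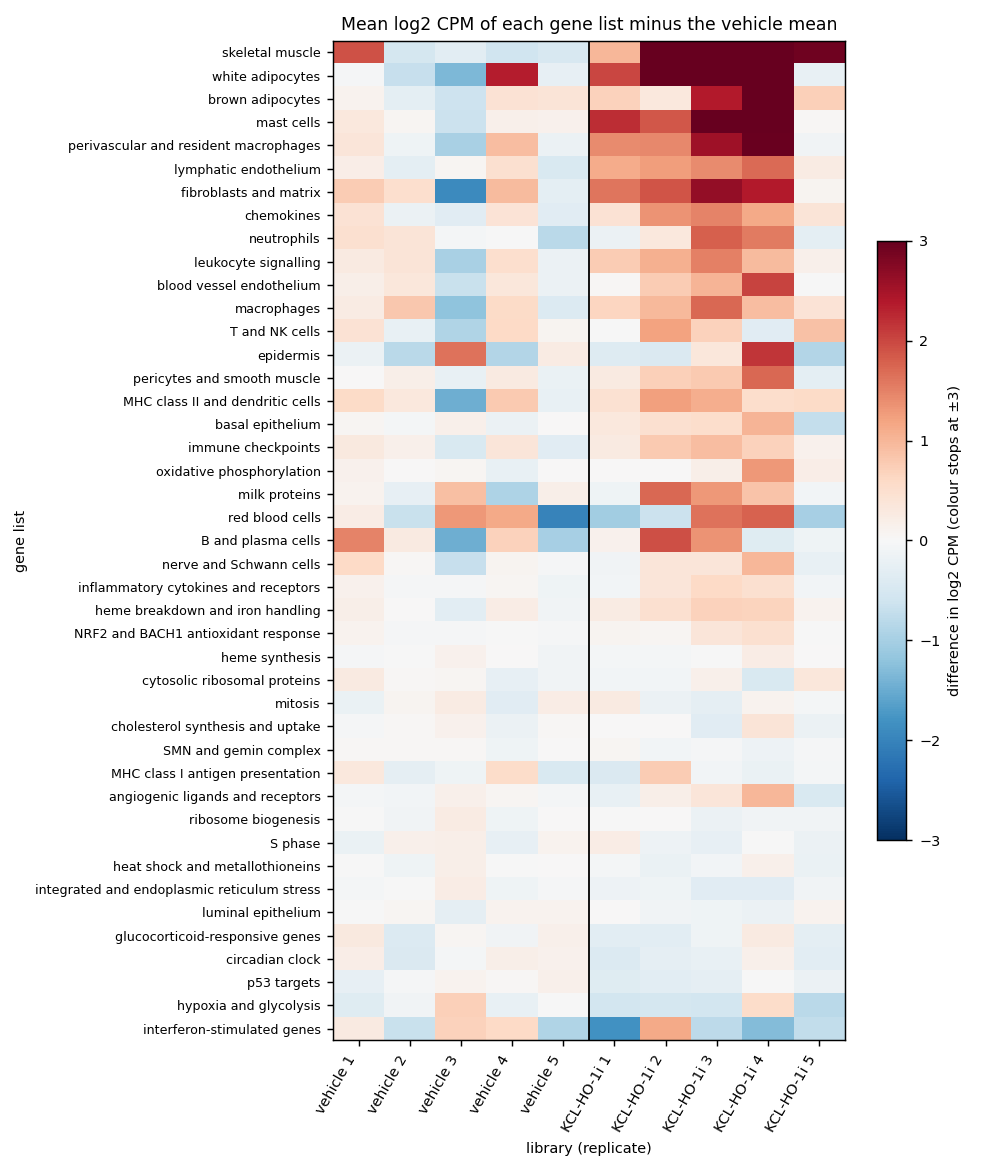
Heat map of the mean log2 CPM of each gene list in each library minus the mean of the 5 vehicle libraries, in log2 units. Muscle and brown adipocyte lists were highest in KCL-HO-1i replicates 3 and 4. The white adipocyte list was highest in replicate 4, followed by replicates 2 and 3. Replicate 5 lay near vehicle for the macrophage, fibroblast and mast cell lists.

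Fibroblast and matrix genes gave a median log2 fold change of 1.64 over 28 genes, of which 18 were higher at an unadjusted p under 0.05 (64.3%). Dcn, the matrix proteoglycan decorin, had 27.2, 15.5, 3.78, 28.1 and 9.22 CPM in vehicle and 52.9, 118, 197, 224 and 15 CPM in KCL-HO-1i, with 2.86 ± 0.97 (edgeR adjusted p = 0.351). Dpt, dermatopontin of the same matrix, had 0.264 to 10.7 CPM in vehicle and 50.4, 55.7, 144, 142 and 4.70 CPM in KCL-HO-1i, with 3.73 ± 1.29. Mmp3, a matrix metalloproteinase of stromal cells, was the member without overlap, at 0.446 to 7.04 CPM in vehicle and 8.74 to 53.2 CPM in KCL-HO-1i, with 2.85 ± 1.07 (edgeR adjusted p = 0.39). Without replicates 3 and 4 the median of the list was 0.96 and 0 genes were called. Summed over the list, vehicle held 520 to 2115 CPM and KCL-HO-1i 1101 to 6646 CPM.

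Blood vessel endothelium gave a median of 0.84 with 6 of 25 genes higher at an unadjusted p under 0.05 (24.0%), or 0.27 with 0 called without replicates 3 and 4. Cldn5, the tight junction claudin of vessels, had 1.14 to 3.38 CPM in vehicle and 3.16, 6.26, 6.57, 27.1 and 2.80 CPM in KCL-HO-1i, with 2.25 ± 0.75 (edgeR adjusted p = 0.348). Its value in replicate 4 was far above the rest. Vegfd, a lymphangiogenic ligand, stood at 0 to 0.752 CPM in vehicle and at 1.72, 2.61, 6.35, 7.86 and 0.247 CPM in KCL-HO-1i, with 3.44 ± 1.28 (edgeR adjusted p = 0.387). Of 7 tested lymphatic endothelial genes 3 were higher, with a median of 1.83, or 1.42 with Ccl21a at its bound. That median was 1.02 with 1 called without replicates 3 and 4.

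Skeletal muscle genes had the largest differences of any list. Of 26 tested members 24 were higher at an unadjusted p under 0.05 (92.3%), with a median of 6.84, and they made up 20 of the 132 genes past the adjusted threshold in DESeq2. Actn3, the actinin of fast muscle fibres, had 1.22, 0.291, 0.0879, 0 and 0.149 CPM in vehicle and 1.08, 7.75, 84.8, 132 and 3.30 CPM in KCL-HO-1i. The value of replicate 1 lay inside the vehicle range, and replicates 3 and 4 were more than 10 times the others. Tnni2 and Neb, both of the contractile apparatus, had the same order in those libraries, and the median of the list without replicates 3 and 4 was 3.03 with 0 genes called.

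Fat genes followed replicate 4. White adipocyte genes gave a median of 3.63, with 15 of 18 higher at an unadjusted p under 0.05 (83.3%), or 1.94 with 0 called without replicates 3 and 4. Fabp4, the fatty acid binding protein of adipocytes, had 16.9, 18.8, 15.04, 116 and 18.3 CPM in vehicle and 104, 419, 307, 3895 and 18.9 CPM in KCL-HO-1i. Cidea, a lipid droplet protein of brown fat, stood at 1.93 to 4.22 CPM in vehicle and at 4.30, 2.98, 27.6, 744 and 3.38 CPM in KCL-HO-1i, and its log2 fold change of 5.81 ± 1.29 (DESeq2 adjusted p = 1.56e-05) was 0.36 ± 0.77 without replicates 3 and 4. Ucp1, the uncoupling protein of brown fat, reached 1681 CPM in replicate 4 and 34.6 CPM in replicate 3, against at most 1.58 CPM in the other 8 libraries. Genes of oxidative phosphorylation were higher in all 32 members, 19 at an unadjusted p under 0.05 (59.4%), with a median of 0.41 that became 0.06 with 0 called when both libraries were left out. Sdhb, a subunit of succinate dehydrogenase, lay between 64.9 and 96.3 CPM in vehicle and between 89.7 and 106 CPM in KCL-HO-1i except for replicate 4 with 302 CPM. The part of muscle and fat RNA in the other differences was not tested.

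**Figure D3:**
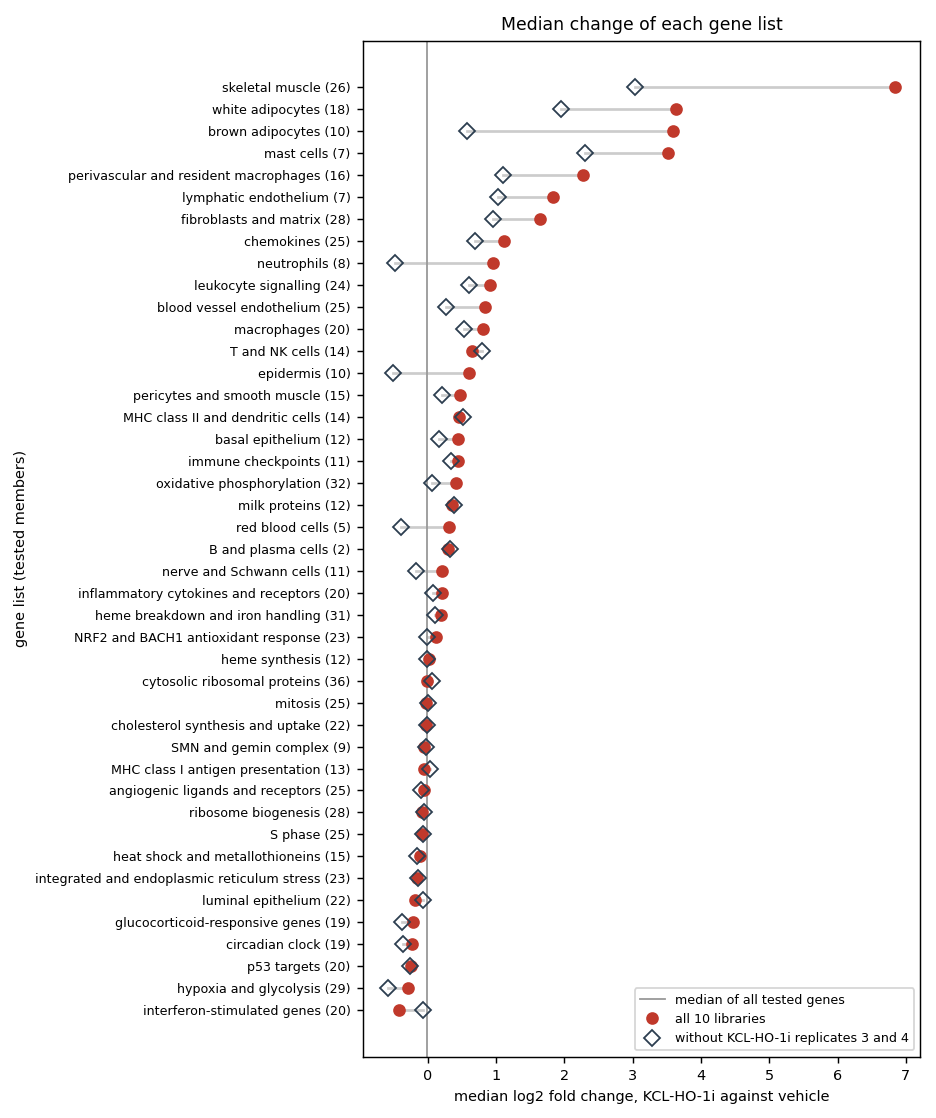
Median log2 fold change (KCL-HO-1i over vehicle) of each gene list with all 10 libraries and without KCL-HO-1i replicates 3 and 4. The muscle median went from 6.84 to 3.03 and that of brown adipocytes from 3.59 to 0.57, while leukocyte signalling went from 0.91 to 0.61 and hypoxia and glycolysis from -0.30 to -0.58.

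The genes highest in all 5 treated libraries beyond these lists were mostly of low expression. Tbx18, a transcription factor of pericytes and other mural cells, held 0 to 0.282 CPM in vehicle and 0.660 to 4.38 CPM in KCL-HO-1i, with 4.04 ± 0.96 and an edgeR adjusted p of 0.333, and 3.19 ± 1.01 without replicates 3 and 4. Nova1, a splicing factor, and Btnl2, a butyrophilin-like protein, gave 3.97 ± 1.00 and 4.00 ± 1.01 on 11 and 7 vehicle reads. Kcnk2, a background potassium channel, had no reads in vehicle and 187 in KCL-HO-1i, 13.1 CPM of it in replicate 4, so its mean was at least 13.9-fold higher than the floor. Among genes with more reads, Cyp4v3, a fatty acid hydroxylase, stood at 2.55 to 6.32 CPM in vehicle and 6.93 to 26.9 CPM in KCL-HO-1i, with 1.33 ± 0.36 (DESeq2 adjusted p = 0.0348). Rfx2, a transcription factor of ciliated cells, stood at 3.43 to 4.04 CPM against 4.37 to 8.97 CPM, with 0.68 ± 0.19, and it was 0.73 ± 0.22 without replicates 3 and 4.

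**Figure D4:**
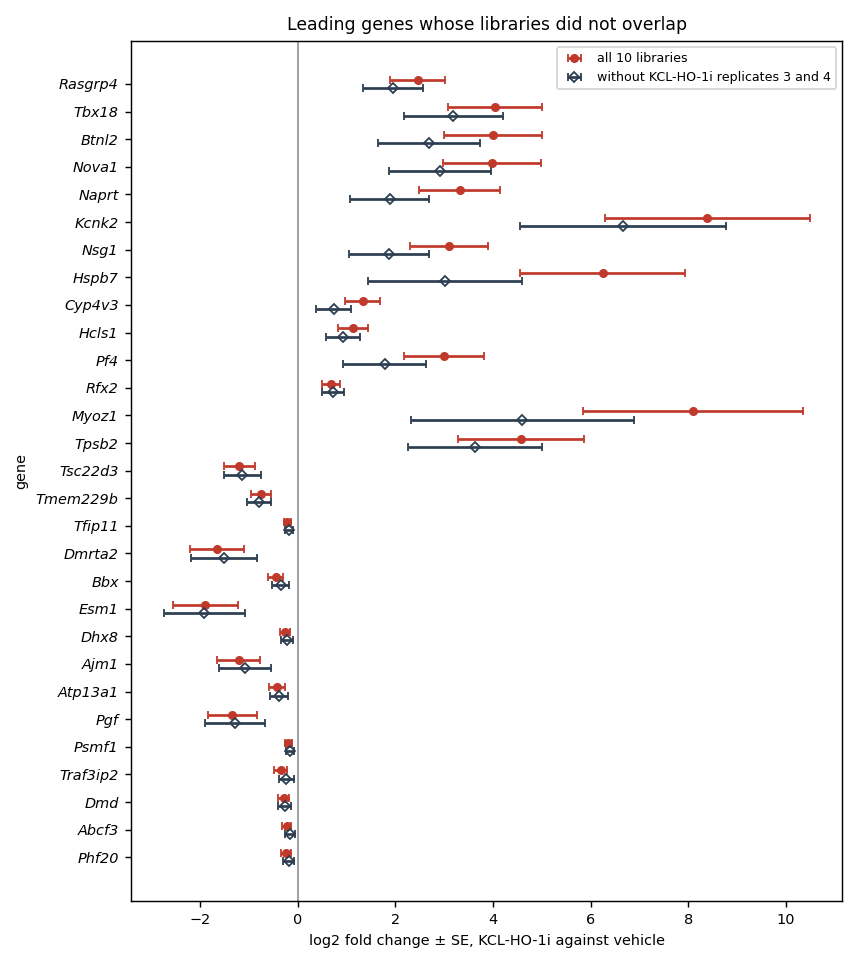
Log2 fold change (KCL-HO-1i over vehicle) with its SE for 14 higher and 15 lower genes of smallest p among those whose 2 groups of libraries did not overlap, with all 10 libraries and without KCL-HO-1i replicates 3 and 4. The lower genes kept most of their size without these libraries (Tsc22d3 from -1.20 to -1.14). The higher genes varied, since Pf4 went from 2.99 to 1.78 and Rfx2 did not shrink.

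The lower genes were led by Tsc22d3 (chrX:140539528-140600522), which encodes the glucocorticoid-induced leucine zipper GILZ. It stood at 140, 49.1, 57.7, 92.9 and 108 CPM in vehicle and at 44.3, 31.3, 40.0, 32.4 and 46.6 CPM in KCL-HO-1i. All treated tumours lay below all vehicle tumours, and within vehicle replicates 2 and 3, which share a mouse code, were the lowest. The log2 fold change was -1.20 ± 0.31 (edgeR adjusted p = 0.333, DESeq2 adjusted p = 0.0347), and -1.14 ± 0.39 without replicates 3 and 4. Tmem229b, a membrane protein, had 58.7 to 102 CPM in vehicle and a narrow 42.8 to 48.6 CPM in KCL-HO-1i, with -0.75 ± 0.20 (DESeq2 adjusted p = 0.0478).

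Several genes of the circadian clock and of the glucocorticoid response, lists added after Tsc22d3 was seen, were lower with it. Per1 (chr11:69095108-69109965), a repressor of the clock that glucocorticoids also induce, had 140, 33.6, 36.8, 109 and 126 CPM in vehicle and 30.0, 44.8, 33.5, 32.2 and 34.8 CPM in KCL-HO-1i. Vehicle replicates 1, 4 and 5 were high, and replicates 2 and 3 lay inside the treated range. Its log2 fold change was -1.35 ± 0.39 (edgeR adjusted p = 0.333, DESeq2 adjusted p = 0.0513). Tef (chr15:81802673-81826863), a clock output factor, split in the same way, with 66.6, 31.1, 27.4, 82.7 and 81.1 CPM in vehicle, 20.2 to 44.1 CPM in KCL-HO-1i and -1.0 ± 0.34. Per2, the partner of Per1, and Fkbp5 (chr17:28398753-28486149), a co-chaperone of the glucocorticoid receptor, gave -1.02 ± 0.35 and -0.71 ± 0.24 (edgeR adjusted p = 0.358 and 0.357), and vehicle replicates 2 and 3 were the lowest vehicle libraries for both.

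Of 19 tested clock genes 5 were lower at an unadjusted p under 0.05 (26.3%, against 2.08% of all tested genes) and 2 higher, with a median of -0.23, or -0.36 with 4 lower without replicates 3 and 4. Of 19 glucocorticoid-responsive genes, which include Per1 and Tsc22d3, 4 were lower (21.1%) and 1 higher, with a median of -0.22, or -0.38 with 2 lower without replicates 3 and 4. Mice were collected on different days according to the study, the day and hour of each are not in the labels, and their part in these differences was not tested. When KCL-HO-1i was added to 5-FU and to gemcitabine, the log2 fold changes were 0.11 ± 0.31 and -0.04 ± 0.31 for Tsc22d3 and -0.11 ± 0.38 and 0.04 ± 0.38 for Per1. An interaction term of edgeR tested the gap from the comparison with vehicle, and for Tsc22d3 it gave 1.32 and 1.16 (edgeR adjusted p = 0.45 and 1).

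The clock activators CLOCK and BMAL1 bind the E-box CACGTG, and annotated promoters of 3 of these lower genes, Per1, Tef and Fkbp5, held it. The other annotated window of Per1 and all 3 windows of Tsc22d3 held 0 copies, and the other window of Tef held 1. Per2 had no window among the annotated promoters and was not searched. One window with a match is shown for each of Per1, Tef and Fkbp5, as the 250 bases before an annotated start of transcription, 5′ to 3′ on the strand of the gene, from the RefSeq annotation of GRCm38.p6, with the E-box in capitals. The window of Per1 is chr11:69098699-69098948 on the + strand, with the E-box 166 bases before the start, that of Tef is chr15:81802423-81802672 on the + strand (127 bases before), and that of Fkbp5 is chr17:28486150-28486399 on the - strand (169 bases before).
Per1: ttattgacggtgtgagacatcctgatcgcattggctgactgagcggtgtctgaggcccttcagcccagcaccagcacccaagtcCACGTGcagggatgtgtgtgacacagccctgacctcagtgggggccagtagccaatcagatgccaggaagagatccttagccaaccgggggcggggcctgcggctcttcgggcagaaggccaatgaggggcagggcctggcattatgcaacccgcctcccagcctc
Tef: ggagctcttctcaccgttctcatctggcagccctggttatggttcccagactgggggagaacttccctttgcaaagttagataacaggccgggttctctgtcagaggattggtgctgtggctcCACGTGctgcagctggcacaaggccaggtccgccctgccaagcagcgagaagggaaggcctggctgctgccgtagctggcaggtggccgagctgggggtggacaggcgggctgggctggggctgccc
Fkbp5: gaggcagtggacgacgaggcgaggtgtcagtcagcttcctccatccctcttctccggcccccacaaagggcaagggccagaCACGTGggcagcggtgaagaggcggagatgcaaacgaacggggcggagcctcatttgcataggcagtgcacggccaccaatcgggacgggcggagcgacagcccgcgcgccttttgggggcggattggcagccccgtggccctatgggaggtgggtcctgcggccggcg
The letters CACGTG read the same on both strands and were present in 1978 of 32851 promoter windows of this length (6.02%), in 6 of the 21 windows of the clock list (28.6%), belonging to Bhlhe41, Ciart, Cry1, Per1 and Tef, and in 4 of the 27 windows of the glucocorticoid list (14.8%). Of the clock genes with these letters, Per1 and Tef were among the 5 lower at an unadjusted p under 0.05. A glucocorticoid response element and a D-box motif were searched in the same windows. The first was in 2 of the 27 glucocorticoid windows (7.41%, Mt1 and Sgk1), against 0.387% of all windows. It was in 0 of the 21 clock windows. The D-box was in 1 clock window (4.76%, Per3), against 2.06% of all, and in 0 glucocorticoid windows. Neither was found for Tsc22d3, Per1, Tef or Fkbp5. A match is a description of the sequence only.

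Angiogenic genes lay on both sides. Of 25 ligands and receptors 3 were higher at an unadjusted p under 0.05 (12%), namely Vegfd, the VEGF co-receptor Nrp2 and the sphingosine phosphate receptor S1pr1, and 2 were lower (8%), namely Pgf and the TIE2 ligand Angpt2, with a median of -0.06. Pgf, placental growth factor, had 47.9, 55.7, 36.2, 42.9 and 90.3 CPM in vehicle and 24.1, 15.3, 17.4, 22.8 and 28.2 CPM in KCL-HO-1i, without overlap, with -1.34 ± 0.50 (edgeR adjusted p = 0.387) and -1.28 ± 0.61 without replicates 3 and 4. Esm1, endocan of sprouting endothelial tip cells and no member of that list, ran from 3.38 to 15.5 CPM in vehicle and from 1.05 to 2.59 CPM in KCL-HO-1i, again without overlap, with -1.89 ± 0.67. Vegfa, the main angiogenic ligand, did not separate, since vehicle replicate 3 (272 CPM) and KCL-HO-1i replicate 4 (221 CPM) were both far above the 27.0 to 63.7 CPM of the other 8 tumours, and its log2 fold change of -0.41 ± 0.68 was -1.46 without replicates 3 and 4 and 0.52 without vehicle replicate 3.

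Egln3, an oxygen sensor that HIF induces, stood at 240, 242, 523, 195 and 265 CPM in vehicle and at 123, 119, 59.0, 166 and 140 CPM in KCL-HO-1i. No library overlapped, and the log2 fold change was -1.27 ± 0.52 (edgeR adjusted p = 0.431). Car9, the carbonic anhydrase of hypoxic cells, and Kdm3a, a histone demethylase under HIF control, gave -1.43 ± 0.63 and -0.55 ± 0.24. Of 29 genes of hypoxia and glycolysis 25 were on the lower side, 3 at an unadjusted p under 0.05 (10.3%) and 0 higher, with a median of -0.30. Without replicates 3 and 4 the median was -0.58 with 5 lower. KCL-HO-1i replicate 4 and vehicle replicate 3 had the highest summed levels of this list, 17244 and 18469 CPM.

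Targets of p53 were on the lower side in 16 of 20 genes, 3 at an unadjusted p under 0.05 (15%), with a median of -0.25, or -0.26 with 1 called without replicates 3 and 4. Cdkn1a, the cell cycle inhibitor p21, had 69.9 to 148 CPM in vehicle and 38.4 to 65.5 CPM in KCL-HO-1i, without overlap, with -0.97 ± 0.44 (edgeR adjusted p = 0.494). Its interaction term on 5-FU was 1.75 (edgeR adjusted p = 0.482). Sesn2, a stress-induced regulator of mTORC1, and Eda2r, an ectodysplasin receptor, gave -0.39 ± 0.16 and -0.96 ± 0.44. Dmrta2, a transcription factor, ran from 8.78 to 15 CPM in vehicle and from 3.01 to 5.74 CPM in KCL-HO-1i, with -1.66 ± 0.56 (edgeR adjusted p = 0.348). The other lower genes of the leading 15 were abundant and differed by small amounts, from -0.20 ± 0.07 for Psmf1, a proteasome inhibitor, to -0.46 ± 0.15 for Bbx, an HMG-box protein, apart from the junction gene Ajm1 with -1.21 ± 0.45 on 88 vehicle and 39 treated reads.

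Lymphocyte genes were few in these libraries. Cd8a, of cytotoxic T cells, had 0.363 to 1.53 CPM in vehicle and 0 to 0.896 CPM in KCL-HO-1i, with -0.66 ± 0.66 (edgeR adjusted p = 0.868), and Gzmb, granzyme B, had 1.45 to 3.73 CPM and 0.895 to 6.27 CPM, with 0.36 ± 0.55. Ifng, the gene of interferon gamma, had 0 reads in vehicle and 2 in KCL-HO-1i, so a difference was not detectable at this depth. Of 14 tested T and NK cell genes 3 were higher at an unadjusted p under 0.05 (21.4%, against 7.36% of all tested genes). They were Klrd1 (CD94), Ncr1 (NKp46) and Cd2, with 4, 8 and 10 vehicle reads against 27, 36 and 47 reads in KCL-HO-1i. The median log2 fold change of the list was 0.65, or 0.79 with 3 called higher without replicates 3 and 4. Against the 15 libraries without KCL-HO-1i it was -0.02. Cd274, the checkpoint ligand PD-L1, gave 1.5 ± 0.61 with 11.6 CPM in replicate 4 against 1.08 to 3.29 CPM in the other treated libraries, and 0.40 without replicates 3 and 4.

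Other programmes showed no called genes at an unadjusted p under 0.05. The 25 S phase genes had a median of -0.09 and the 25 mitotic genes of -0.02. The 20 interferon-stimulated genes had a median of -0.42, which was -0.07 without replicates 3 and 4, and the 13 genes of MHC class I antigen presentation had -0.06. Luminal epithelial genes had -0.19 over 22 genes and cytosolic ribosomal proteins -0.01 over 36. These values do not show that the groups were alike.

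The same inhibitor was also compared within chemotherapy, in libraries of neither group of the comparison with vehicle. Those libraries did enter the shared filter and dispersion of the fit, and with only the 10 libraries 619 of the 1005 higher and 178 of the 284 lower genes were called again. Of the 1005 genes higher with KCL-HO-1i alone, 326 (32.4%) were also higher at an unadjusted p under 0.05 in KCL-HO-1i/gemcitabine against gemcitabine, where 6.94% of all tested genes were higher and 6.51% lower, and 0 were lower. In KCL-HO-1i/5-FU against 5-FU the number was 57 (5.67%), where 6.18% of all tested genes were higher and 5.26% lower, and 4 were lower. Of the 284 lower genes, 86 (30.3%) were lower in the gemcitabine and 7 (2.46%) in the 5-FU comparison, while 1 was called higher in the gemcitabine and 14 (4.93%) in the 5-FU comparison. The share for gemcitabine was thus above that of all genes in both directions and the share for 5-FU was near or under it. Without replicates 3 and 4 the gemcitabine shares were 27 of 84 (32.1%) and 22 of 115 (19.1%), and the 5-FU shares were 8 of 84 (9.52%) and 2 of 115 (1.74%). Skeletal muscle RNA was also unequal in the gemcitabine comparison, with 24.3 to 381 CPM in gemcitabine and 37.3 to 19798 CPM in KCL-HO-1i/gemcitabine, and its 26 tested genes were all called higher there. Mouse codes of KCL-HO-1i libraries also occurred in 2 of the KCL-HO-1i/gemcitabine and 3 of the KCL-HO-1i/5-FU libraries and in 1 of the 5-FU libraries, and 1 vehicle code occurred in KCL-HO-1i/gemcitabine. The part of muscle RNA or codes in the shares was not tested.

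**Figure D5:**
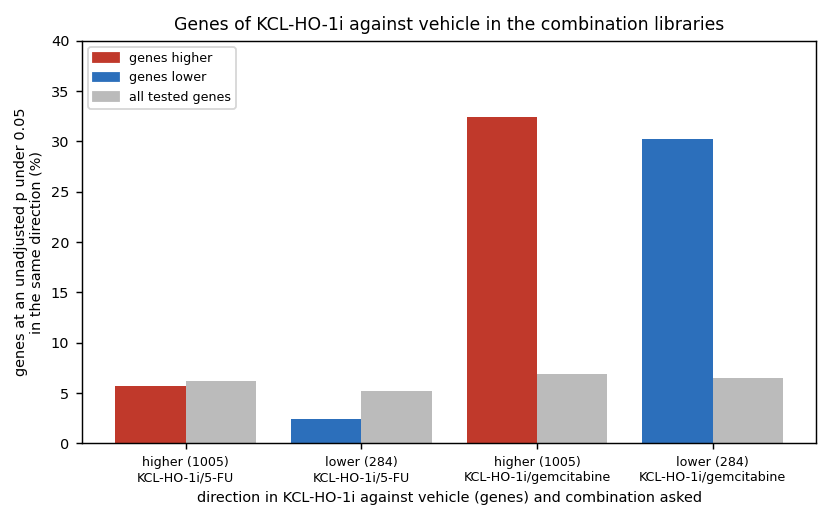
Share, in percent, of the genes higher or lower with KCL-HO-1i alone that were called in the same direction when KCL-HO-1i was added to 5-FU or to gemcitabine, beside the share of all tested genes. For gemcitabine the shares were 32.4% and 30.3% against 6.94% and 6.51%, and for 5-FU they were 5.67% and 2.46% against 6.18% and 5.26%.

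In all, 25 of the 1005 higher genes (2.49%) were higher in both chemotherapy comparisons, against 107 of all tested genes (0.783%). They included Hmox1, Slc40a1, Slc11a1 and Spic of heme and iron handling, the leukocyte gene Hcls1, and the stromal protease Mmp3. Hmox1 had a mean of 38.8 ± 19.2 CPM in 5-FU and 356 ± 475 in KCL-HO-1i/5-FU, and of 37.3 ± 17.3 in gemcitabine and 202 ± 126 with KCL-HO-1i added (SD, n = 5 throughout). The log2 fold changes of Hmox1 were 3.20 ± 0.68 and 2.44 ± 0.66 (edgeR adjusted p = 0.2 and 0.282), beside 1.63 ± 0.64 against vehicle. Slc40a1 gave 1.88 ± 0.45 and 1.32 ± 0.44, Slc11a1 1.29 ± 0.51 and 1.82 ± 0.52, and Hcls1 0.93 ± 0.30 and 1.18 ± 0.31. Lyve1 differed in sign, with -1.58 ± 1.25 on 5-FU and 0.55 ± 1.18 on gemcitabine, beside 3.12 ± 1.27 against vehicle, and the interaction term on 5-FU was -4.70 (edgeR adjusted p = 0.486). Over all tested genes, 0 interactions passed an adjusted p under 0.05 in edgeR for either chemotherapy, and 1166 and 183 had an unadjusted p under 0.05 for 5-FU and gemcitabine. The lower genes shared by both were 5 of 284 (1.76%), against 110 of all tested genes (0.805%), among them Abcf1, Rars and Ltn1 of translation and its quality control.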

How the data were processed

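Total RNA of mammary tumours was made into stranded libraries, and the submitters' processing notes name FastQC 0.11.9, STAR 2.7.9a, Salmon 1.9.0 and DESeq2 with build mm10. The authors deposited expected counts, that is Salmon estimates of reads summed to genes with tximport, which the methods of the study call TPM counts. Of its values 38.0% are not whole, and they were rounded here.

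Of 21841 genes, 13663 passed filterByExpr of edgeR by group (minimum count 10). KCL-HO-1i was compared with vehicle by the quasi-likelihood test of edgeR 4.0.16 (R 4.3.3; robust dispersion, TMM factors, a mean for each of the 6 groups over all 30 libraries, two-sided, Benjamini-Hochberg adjustment). SEs were taken as the size of the log2 fold change over the square root of F. CPM use effective library sizes, list means a prior count of 2 on the log2 scale, and folds against undetected groups a floor of 3 reads. DESeq2 1.42.0 and limma-voom (limma 3.58.1) were alternatives. The fit was tested on simulated data with less spread than the common estimate for these libraries and with no outlying library. That test therefore does not show how the fit performs on these data.

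The study gives cohorts of 5 mice, collected on separate days, and each library has its own identifier in the labels. Duplicates were checked over 20 pairs within the groups (chi-square per degree of freedom at least 19.6). Replicate numbers did not pair the samples, with residual correlations of -0.219 to 0.188 over 5 pairs. The gene lists and named genes were chosen with earlier results of these data known. Genes named were a set of heme, macrophage, T cell and chemokine genes whatever their values, up to 15 higher and 15 lower genes of smallest p without overlap between the groups, and up to 4 genes of smallest p of each list. Values are printed for part of these genes, and 1 of the 15 leading higher genes is not reported here. Other genes (Per1, Per2, Tef, Fkbp5, Fth1, Ftl1, Fabp4, Vegfa, Krt8, mast cell genes and those shared with the combinations) were chosen after their values were seen. Promoters and coordinates came from RefSeq tables of GRCm38.p6.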

Additional observations from a re-analysis of the deposited data

Results flagged for a closer look

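In 25 of 274 groups of 5 libraries, a library stood outside the others by a Dixon gap of over 0.71 of the range, and chance alone gives about 1 in 20. On the log2 CPM scale, vehicle replicate 3 was lowest for Cd163 (-1.99), Dpt (-1.23), Btk (0.060), Cyp4v3 (1.44), Mcpt4 (-2.61) and the mast cell list (-1.61), and highest for Vegfa (8.09), Atp13a1 (6.90) and Ajm1 (1.70). Vehicle replicate 1 was highest for the skeletal muscle list (1.18) and the NRF2 and BACH1 list (6.28), replicate 2 for Abcf3 (6.31), and replicate 4 for Fabp4 (6.86), Plin1 (3.80) and Spic (-1.59), and lowest for the SMN and gemin complex (4.75).

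KCL-HO-1i replicate 4 was highest for the share of mitochondrial counts (9.69%) and, on the log2 CPM scale, for oxidative phosphorylation (8.69), Sdhb (8.24), Vegfa (7.79), hypoxia and glycolysis (7.67) and heme synthesis (4.94). Replicate 5 was highest for Sesn2 (5.11) and Blvra (5.05), and replicate 1 lowest for Spic (-2.61).

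In 2 lists every KCL-HO-1i library lay on one side of the vehicle mean and every KCL-HO-1i/5-FU library on the opposite side of the 5-FU mean, and these differences were not tested. The mean of the p53 targets was lower with KCL-HO-1i alone and higher when it was added to 5-FU, a difference of -0.60 on the log2 scale. KCL-HO-1i replicate 4 (4.8077) lay just under the vehicle mean (4.8081). Oxidative phosphorylation was higher with KCL-HO-1i alone and lower when added to 5-FU, a difference of 0.56. Here KCL-HO-1i replicate 4 stood at 8.69 and the other treated libraries at 7.38 to 7.58. Replicate 2 (7.381) lay just above the vehicle mean (7.377).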

How the results depend on the processing

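Counts of genes at an adjusted p under 0.05 (0 in edgeR) were 132 in DESeq2, 5 in DESeq2 without KCL-HO-1i replicates 3 and 4, 110 against 15 libraries, and 0 with any library left out. The 1005 higher and 284 lower genes became 84 and 115 without replicates 3 and 4, 54 and 64 without vehicle replicate 3 as well, 133 and 155 in DESeq2 without replicates 3 and 4, 64 and 88 against 15 libraries without them, and 77 and 72 with the mouse code as a covariate. Leaving out replicates 3 and 4 was chosen after the data were seen. The lower genes were 586 in limma-voom and 175 at a mean of at least 50 counts. Leaving out each library in turn gave 415 to 1189 higher and 177 to 452 lower genes. With the replicate block 787 were higher and 249 lower, 0 past the adjusted threshold, and same-numbered libraries correlated best with their own number in 1 of 5 pairs. The share of all called genes repeated within 5-FU was 4.97% and became 2.61% with the replicate block, and that within gemcitabine 32.0% and 26.6%. Log2 fold changes that turned sign had no adjusted p under 0.05. The fit with the mouse code as a covariate compared the groups only through vehicle replicate 1. In that fit the values that turned sign were Hmox2 -0.28, Blvra -0.19, Cd8a 0.73, Gzmb -0.14, Cxcl12 -0.051, Hspb7 -0.31, Maf -0.11, Neb -0.99, Tnni2 -0.28, Sdhb -0.34 and Fth1 -0.23. Against 15 libraries they were Hmox2 -0.058, Gzmb -0.22 and Vegfa 0.090, and without replicates 3 and 4 as well Hmox2 -0.12, Cxcl12 -0.21 and Cidea -0.35. Hmox2 was also -0.054 in limma-voom, -0.055 without replicates 3 and 4, -0.050 in DESeq2 without them and -0.14 without vehicle replicate 3 as well. With each library left out Hmox2 ran from -0.080 to 0.11, Gzmb from -0.10 to 0.58 and Vegfa from -1.50 to 0.52. Of 2047 other values of named genes, 2010 kept direction and side of the threshold and 37 passed it. The causes were not tested. Genes with few reads (Spic, Ifng, Ccl21a, Cd8a) are limited by depth.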

Other observations

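Further gene groups gave the following values in KCL-HO-1i against vehicle. All 8 tested neutrophil genes were on the higher side with a median log2 fold change of 0.96 and 0 at an unadjusted p under 0.05, and the median was -0.48 without KCL-HO-1i replicates 3 and 4. Genes of MHC class II and dendritic cells gave a median of 0.45 over 14 genes, with 1 higher at an unadjusted p under 0.05 (7.14%, near the 7.36% of all tested genes). Immune checkpoints gave 0.44 over 11 genes, with 2 higher (18.2%). The integrated and endoplasmic reticulum stress response was on the lower side in 20 of 23 genes, with a median of -0.16. At an unadjusted p under 0.05, 1 was lower (4.35%, against 2.08% of all tested genes). Ribosome biogenesis was on the lower side in 23 of 28 genes, with a median of -0.08 and 1 lower (3.57%). In KCL-HO-1i/gemcitabine against gemcitabine 22 of the 28 were lower at an unadjusted p under 0.05, with a median of -0.41. There 6.51% of all tested genes were lower. S phase genes had a median of -0.67 in KCL-HO-1i/5-FU against 5-FU with 16 of 25 lower, where 5.26% of all tested genes were lower. In KCL-HO-1i against vehicle it was -0.09 with 0 of 25 lower. Cholesterol synthesis and uptake gave a median of -0.03 over 22 genes and heat shock proteins and metallothioneins -0.12 over 15, with 0 called in either.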
